A study of Mus musculus with 3 samples.

Results

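The S100A proteins are small calcium sensors with a pair of EF hands, named here from gene symbols beginning S100a followed by a number, and 9 such genes with 12 RefSeq transcripts had values among the 11886 genes and 17910 transcripts measured. A further gene of this form is not reported here, so counts and medians describe these 9 genes and not the whole family. Of 13 such RefSeq genes considered, S100a2, S100a5, S100a8 and S100a9 had no value, and S100a8 and S100a9 encode the subunits of calprotectin, the main cytosolic protein of neutrophils. S100a16 had 4 transcripts with values and each of the other 8 genes had 1.

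The groups were GFP-positive mT3-2D-GFP tumour cells sorted from SCID mice (B6.CB17-Prkdcscid/SzJ, which lack T and B cells), the same cells sorted from wild-type (WT) C57BL/6 mice, and the mT3-2D-GFP line kept in culture. The line is a mouse pancreatic cancer line of C57BL/6 origin from the KPC model, a genetically engineered mouse that develops pancreatic tumours. Equal amounts of RNA from 5 SCID tumours, and likewise from 6 WT tumours, were pooled, so each group was 1 library. Every value below is a log2 fold change between 2 libraries from the authors' deposited table, and a gene's value is the mean over its transcripts. Levels in single libraries and their depths were not analysed here, no difference has a replicate check, and no test or p-value is given. Values in the table ran only from -2.49 to 2.77, so a fold is a fold on the deposited scale. SCID minus line and WT minus line share the cultured library.

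On binding calcium, most S100 proteins open a hydrophobic face that grips partner proteins such as annexins, and pairs of S100 chains form the working unit. Inside the cell they act on the cytoskeleton, membranes and enzymes. Some members leave the cell and signal through RAGE, Toll-like receptor 4 or CD147. Several are raised in pancreatic ductal tumours relative to normal pancreas. Their genes are clustered beside the epidermal differentiation complex, a block of skin barrier genes.

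All 9 genes were lower in the cells sorted from SCID tumours and in those from WT tumours than in the cultured line. S100a7a was lowest by far, at -2.49 in SCID cells (5.63-fold lower) and -2.44 in WT cells (5.42-fold lower), each against the line. The median of the 9 was -0.68 in SCID cells and -0.64 in WT cells against the line, where the median over all genes was -0.015 in SCID minus line and -0.014 in WT minus line. Of all genes, 51.7% were below 0 in SCID minus line, 51.4% in WT minus line and 46.7% in both. Between the SCID and WT pools these genes differed little, with a median of -0.013 and a range of -0.31 to 0.038.

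**Figure D1:**
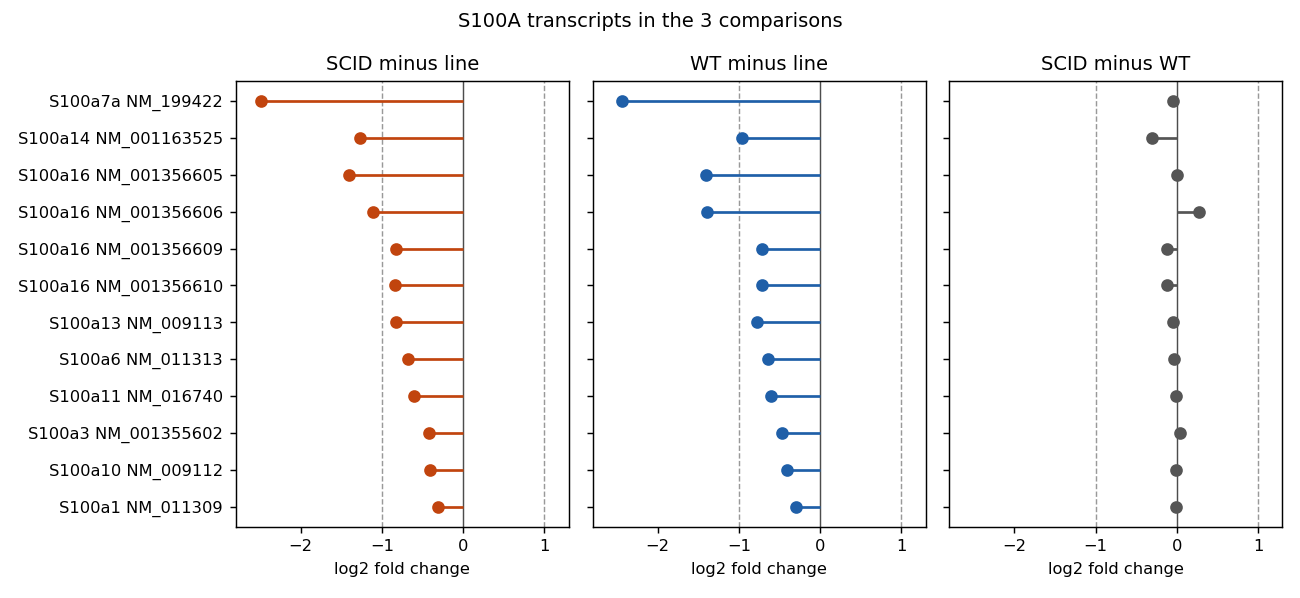
Log2 fold change (horizontal axis) of each S100A transcript (rows) in SCID minus line, WT minus line and SCID minus WT; each point is 1 value of the deposited table and dashed lines mark 2-fold. All 12 transcripts lie below 0 against the line, S100a7a lies at -2.49 and -2.44, and SCID minus WT values lie between -0.31 and 0.28.

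By the 2-fold threshold, a log2 value of 1 or more from 0, the genes called lower were 3 of these 9 in SCID minus line, where 2.62% of all genes were called lower, and 2 of 9 in WT minus line, where 2.03% were. Those of SCID minus line were S100a7a, S100a14 and S100a16, and those of WT minus line S100a7a and S100a16. In WT minus line S100a14 fell short of the threshold at -0.96. With the median of its 4 transcripts in place of their mean, S100a16 fell short in SCID minus line at -0.97, which left 2 genes called, and passed in WT minus line at -1.05. At a 1.5-fold threshold 6 of the 9 were called lower in SCID minus line and 6 in WT minus line, where 9.43% and 8.36% of all genes were. At a 4-fold threshold S100a7a alone was called lower in SCID minus line and in WT minus line, with 0.0337% and 0.0421% of all genes. None of the 9 was called higher in either comparison, against 3.65% of all genes in SCID minus line and 4.12% in WT minus line. Counted by transcript, 4 of 12 passed in SCID minus line (2.49% of all transcripts) and 3 of 12 in WT minus line (2.05%).

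S100A mRNAs are short, and the deposited values moved to a small extent with transcript length and GC content. A quadratic trend in both took up 4.68% of the variance over transcripts in SCID minus line, 6.09% in WT minus line and 6.84% in SCID minus WT. The 7 S100A transcripts matched to a GENCODE sequence had a median length of 715 bases (511 to 1280), against 2966 bases over all matched transcripts, and a median GC content of 51.4%, against 50.6%. With a quadratic trend in both removed, all 9 genes were still below 0 against the line, but closer to it. Their median was then -0.43 in SCID cells and -0.41 in WT cells. The genes past 2-fold were then S100a7a at -2.35 and S100a14 at -1.10 in SCID minus line, and S100a7a alone, at -2.30, in WT minus line. The share of all genes past 2-fold and the median over all genes were not computed with the trend removed. These counts and medians therefore have no background beside them. S100a16 then fell short, at -0.87 in SCID minus line and -0.91 in WT minus line. S100a16 and S100a3 had no matched transcript, so their length and GC content were taken from other transcripts of the gene.

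**Figure D2:**
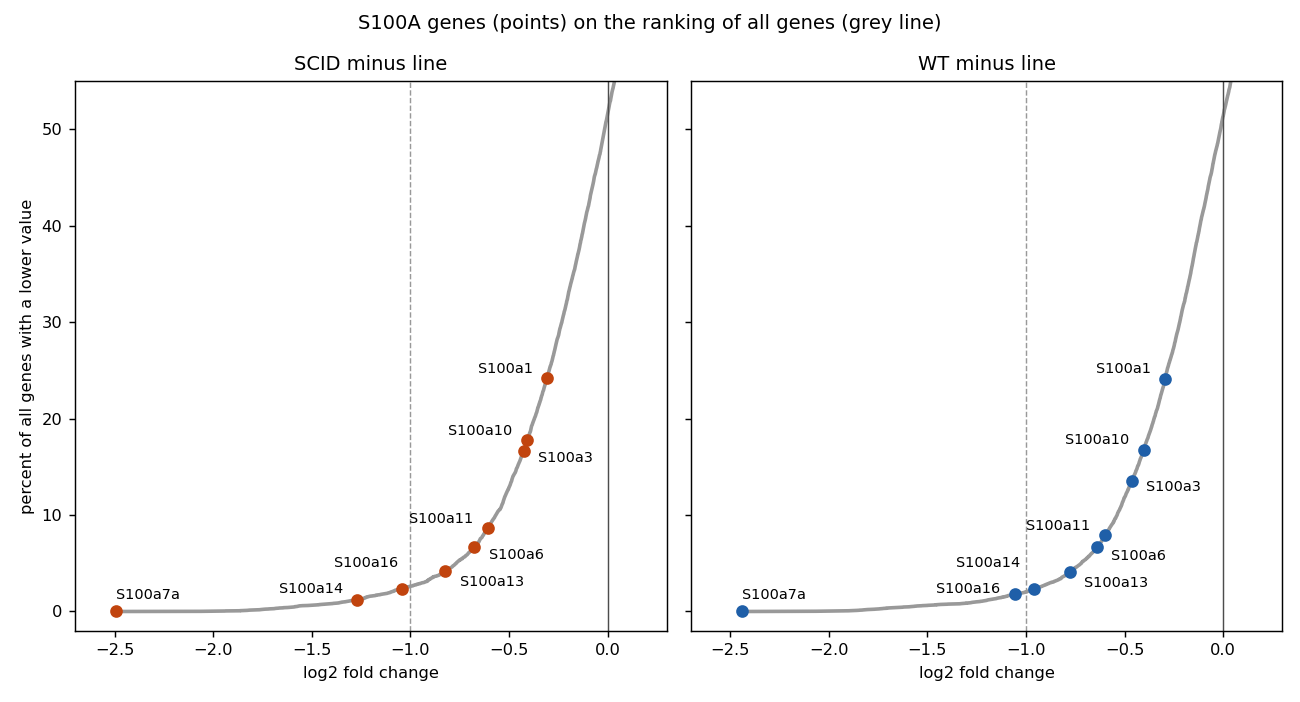
Percent of all 11886 genes with a lower value (vertical axis) against the log2 fold change (horizontal axis) in SCID minus line and WT minus line; the grey line is the ranking of all genes, cut at its middle, the points are S100A genes and the dashed line marks 2-fold lower. S100a7a has no gene below it, and S100a1, the highest of the 9, has 24.2% of genes below it in SCID minus line and 24.1% in WT minus line.

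All 9 genes lie on mouse chromosome 3. In the coordinates of the authors' deposited table, which match GRCm38, S100a1, S100a13, S100a14, S100a16, S100a3, S100a6 and S100a7a lie in this order over 147 kb, and S100a11 and S100a10 lie 2862 kb beyond S100a7a, 28.8 kb apart. S100a1 runs on the reverse strand and the other 8 on the forward strand. The starts of S100a1 and S100a13 face away from each other with 104 bases between them. The S100a16 transcripts begin at a pair of starts 3892 bases apart and share their end.

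RefSeq windows of 250 bases before a measured start were held for 8 starts of 7 members, in build GRCm38.p6; S100a10 and S100a14 had no window. The ones shown are the window of S100a7a, the lowest member, and both starts of S100a16, the only member with more than 1 transcript. Also shown are the window of S100a11, which held the most motif matches of the 8, and the bases that separate S100a1 from S100a13. Each stretch shown is on the forward strand, 5′ to 3′, and ends at the base before a start. Capitals mark matches, on either strand, to the AP-1 motif TGANTCA, the hypoxia core ACGTG, the TATA box TATAAA or the CCAAT box CCAAT.
S100a7a, chr3:90654052-90654301: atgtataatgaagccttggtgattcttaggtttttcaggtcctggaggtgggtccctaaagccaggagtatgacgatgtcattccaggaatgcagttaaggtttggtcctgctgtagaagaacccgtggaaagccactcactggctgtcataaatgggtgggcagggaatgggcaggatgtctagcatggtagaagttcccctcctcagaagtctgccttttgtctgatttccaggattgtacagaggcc
S100a16 upstream start, chr3:90537004-90537253: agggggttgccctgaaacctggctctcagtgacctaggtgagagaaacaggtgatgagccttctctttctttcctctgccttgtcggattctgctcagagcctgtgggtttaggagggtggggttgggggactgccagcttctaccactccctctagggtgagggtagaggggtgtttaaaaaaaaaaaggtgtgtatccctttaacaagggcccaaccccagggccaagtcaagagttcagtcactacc
S100a16 downstream start, chr3:90540896-90541145: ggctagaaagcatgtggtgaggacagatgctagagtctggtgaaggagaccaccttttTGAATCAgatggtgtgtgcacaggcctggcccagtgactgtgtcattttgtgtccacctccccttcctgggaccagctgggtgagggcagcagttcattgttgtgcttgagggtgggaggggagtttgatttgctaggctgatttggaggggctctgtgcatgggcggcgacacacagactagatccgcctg
S100a11, chr3:93520246-93520495: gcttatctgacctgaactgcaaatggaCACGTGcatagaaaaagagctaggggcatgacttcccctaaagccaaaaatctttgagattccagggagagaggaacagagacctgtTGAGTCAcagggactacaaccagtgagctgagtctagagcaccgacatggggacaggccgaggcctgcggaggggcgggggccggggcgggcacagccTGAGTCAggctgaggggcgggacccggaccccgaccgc
between S100a1 and S100a13, chr3:90514331-90514434: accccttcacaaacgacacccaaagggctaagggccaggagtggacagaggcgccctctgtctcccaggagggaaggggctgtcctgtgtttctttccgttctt

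The window of S100a7a, the upstream window of S100a16 and the bases between S100a1 and S100a13 held none of these letters. The downstream window of S100a16 held 1 AP-1 match. The window of S100a11 held 2 AP-1 matches and the palindrome CACGTG, which the hypoxia core matches on both strands. Over the 8 member windows, 2 held the AP-1 motif, 1 the hypoxia core, 1 the TATA box (S100a3) and 2 the CCAAT box (S100a3 and S100a6). Over 32851 RefSeq windows of the same length the shares were 6.75% for AP-1, 16.6% for the hypoxia core, 12.4% for the TATA box and 33.8% for the CCAAT box. A match is a run of letters and not a measured binding site, and nothing about a factor follows from its absence.

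S100a7a, the mouse relative of human psoriasin (S100A7) and koebnerisin (S100A15), is an inflammation-induced protein of keratinocytes with antimicrobial and chemoattractant activity. It had 1 transcript, NM_199422, from 90654302 to 90658130. Its value was the lowest of all 11886 genes in SCID minus line and again in WT minus line. Its value in SCID minus WT was -0.053. By distance over the values of SCID minus line and WT minus line, the 5 genes nearest to S100a7a were Tmigd1, Mettl7b, Hist2h3c2, Hist1h3g and Hist2h3c1, the last 3 of which encode histone H3. Tmigd1 was nearest, at -2.14 in SCID cells and -2.23 in WT cells against the line, a distance of 0.41. No gene lay within 0.1 of S100a7a, while 871 genes lay within 0.1 of S100a1, the highest member. These counts go with rank and are not a separate result. S100a7a stood at the low end of both lists, where genes are few. S100a1 had 24.2% of genes below it in SCID minus line and 24.1% in WT minus line.

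S100a14 encodes an epithelial member that binds calcium weakly and has been tied to epithelial cell motility. Its transcript NM_001163525, from 90526849 to 90528835, was at -1.27 in SCID cells (2.41-fold lower) and at -0.96 in WT cells (1.94-fold lower), each against the line. It was the S100A gene that differed most between the pools, at -0.31 in SCID minus WT, with 3.53% of all genes lower. No replicate shows whether pools of other tumours would differ in the same way. Over the whole table, transcripts of a gene varied with a pooled SD of 0.22 in SCID minus WT, which gives the spread of transcripts and not of mice.

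S100a16 encodes a widely made member with a role in fat cell formation. The 2 transcripts from the upstream start were at -1.40 and -1.11 in SCID cells and at -1.40 and -1.39 in WT cells, each against the line. The 2 from the downstream start, which lies inside the span of the first pair, were at -0.83 and -0.84 in SCID cells and at -0.72 and -0.72 in WT cells. Transcripts of the upstream start were thus lower in each comparison with the line, with a mean difference from the downstream start of -0.42 in SCID minus line and -0.68 in WT minus line. The whole range over the 4 transcripts was 0.57 in SCID minus line and 0.68 in WT minus line, where the median range over the 345 genes with 4 transcripts was 0.49 and 0.48. Of those genes, 57.4% had a smaller range in SCID minus line and 67.0% in WT minus line. Transcripts with shared exons share reads, and how the authors divided them is not given in the sources used here. In SCID minus WT the transcripts lay on both sides of 0, at 0.00068 and 0.28 for the upstream start and -0.12 and -0.12 for the downstream start, and their mean was 0.011.

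S100a10, S100a11 and S100a6 are the members best known as annexin partners. S100a10 (p11) cannot bind calcium and joins annexin A2 in a tetramer that docks plasminogen at the cell surface. It was at -0.41 in SCID cells and -0.40 in WT cells against the line. S100a11 (calgizzarin), a partner of annexin A1 in membrane traffic and repair, was at -0.61 and -0.60 in SCID and WT cells. S100a6 (calcyclin), raised in many proliferating cells, was at -0.68 in SCID cells and -0.64 in WT cells. None of the 3 passed 2-fold, and their SCID minus WT values were -0.0049 for S100a10, -0.0099 for S100a11 and -0.035 for S100a6.

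S100a13, S100a1 and S100a3 serve narrower tasks. S100a13, which helps FGF1 leave the cell without a signal peptide, was at -0.82 in SCID cells and -0.78 in WT cells against the line. S100a1, a regulator of calcium release in heart and skeletal muscle, was at -0.31 in SCID cells and -0.30 in WT cells. S100a13 was thus the lower of this divergent pair in SCID and in WT cells. S100a3, a zinc-binding protein of the hair cuticle, was at -0.43 in SCID cells and -0.46 in WT cells, on the single transcript NM_001355602. With the length and GC trend removed, S100a1 stood at -0.056 in SCID minus line and in WT minus line, S100a3 at -0.17 and -0.23, and S100a10 at -0.18 and -0.17. In SCID minus WT, S100a13 was at -0.045, S100a1 at -0.013 and S100a3 at 0.038.

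None of the 9 S100A genes passed 2-fold between the pools. In SCID minus WT 0.303% of all genes were called lower and 0.0168% higher, so few genes of any kind passed. Below 0 were 7 of the 9 S100A genes, where 51.5% of all genes were. S100a3 and S100a16 were above 0, and S100a16 was at -0.057 by its median transcript. At a 1.5-fold threshold, which 1.1% of all genes passed in the lower direction, none of the 9 was called either.

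On the ordered list of SCID minus line the 9 genes ran S100a7a, S100a14, S100a16, S100a13, S100a6, S100a11, S100a3, S100a10 and S100a1, lowest first. In WT minus line S100a14 and S100a16 changed places and the other 7 kept theirs. The pooled SD over transcripts of one gene was 0.33 in SCID minus line and 0.31 in WT minus line. The gap between S100a7a and the next gene exceeded it in each list, and every other gap between neighbours was smaller, as between S100a14 at -1.27 and S100a16 at -1.04 in SCID minus line. This SD gives the spread of transcripts of one gene and not the error of a gene's value, which 1 library per group cannot give. Which gaps would hold in other pools is therefore unknown.

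The genes around the 9 S100A genes lay on both sides of 0. Of 19 other genes with a value within 500 kb of a member, 13 were above 0 in SCID minus line and 13 in WT minus line, with medians of 0.13 and 0.15, and none passed 2-fold. Farthest from 0 in SCID minus line were 1700094D03Rik, of no described function, at 0.80 in SCID cells and 0.70 in WT cells, and Nup210l, a nucleoporin relative, at 0.64 and 0.61. Farthest in WT minus line were Dennd4b, a regulator of Rab traffic, at 0.53 in SCID cells and 0.91 in WT cells, and Tchh (trichohyalin) at 0.52 and 0.87. The nearest genes before S100a1 were Chtop, an mRNA export factor, at -0.30 in SCID cells and -0.35 in WT cells, and, beyond Snapin at 0.041 and -0.049, Ilf2 at -0.46 in both. In the gap between S100a7a and S100a11, 4 genes had values. Sprr1a, a cornified envelope precursor, passed 2-fold at 1.02 in SCID cells and 1.27 in WT cells. Beside it and Tchh, Ivl (involucrin) was at 0.32 and 0.42 and 4930529C04Rik at -0.0095 and -0.17. The 9 S100A genes, on either side of this block, were all below 0.

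**Figure D3:**
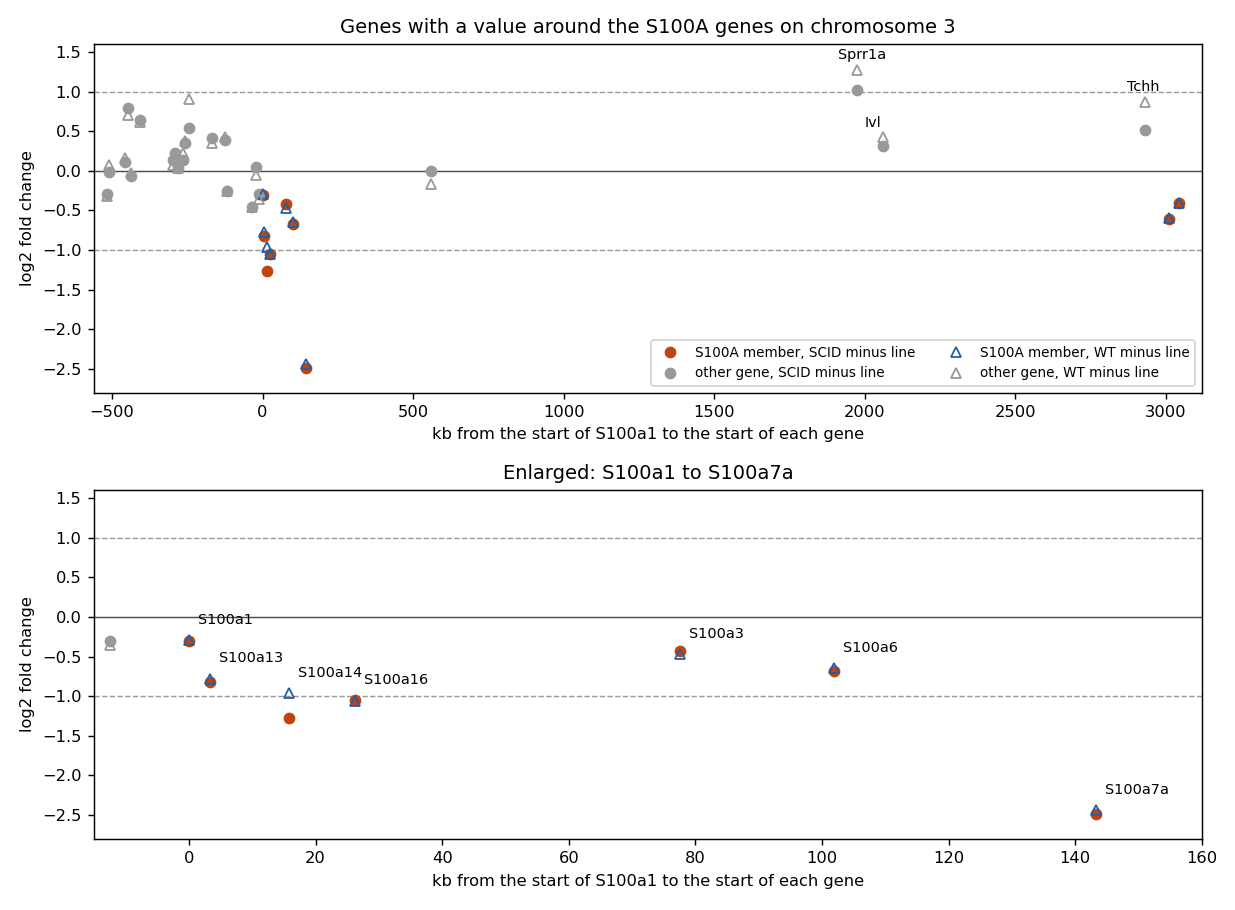
Log2 fold change (vertical axis) against distance in kb from the start of S100a1 (horizontal axis), for genes with a value on chromosome 3 from about 500 kb before S100a1 to S100a10, with the span from S100a1 to S100a7a enlarged; filled circles are SCID minus line, open triangles WT minus line, colour marks S100A genes and grey other genes, and dashed lines mark 2-fold. The 9 S100A genes lie below 0 on both sides of Sprr1a, Ivl and Tchh, which lie above 0, with Sprr1a at 1.02 and 1.27.

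The listed cornified envelope and keratinocyte genes, a group S100a7a is made with in skin, differed in direction. Of 29 such genes 5 had values, with medians of 0.32 in SCID minus line and 0.42 in WT minus line. Krt14, the basal keratin, was called lower in SCID cells at -1.18 and was at -0.65 in WT cells, and Krt10, of upper skin layers, was at 0.25 and 0.23. Sprr1a was the other gene past 2-fold.

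Annexins, which bind membranes in the presence of calcium and include the main S100 partners, all had values, and none of the 12 passed 2-fold. Below 0 were 8 of 12 in SCID minus line and 8 in WT minus line, with medians of -0.18 and -0.097. Anxa2, the partner of S100a10, was at -0.24 in SCID cells and -0.18 in WT cells. Anxa1, the partner of S100a11, was at 0.19 in both, beside S100a11 at -0.61 and -0.60. Anxa11, which binds S100a6, was at -0.65 in SCID cells and -0.41 in WT cells. Farthest from 0 was Anxa3, at -0.77 in SCID cells and -0.72 in WT cells, followed by Anxa11 in SCID minus line and by Anxa13, at -0.60 in SCID cells and -0.56 in WT cells, in WT minus line.

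Of 30 listed intracellular partners and targets 23 had values, and none passed 2-fold. Cacybp, the calcyclin-binding protein of ubiquitin ligase complexes, was at -0.77 in SCID cells and -0.80 in WT cells, beside S100a6 at -0.68 and -0.64. Fgf1, the cargo of S100a13, was at -0.61 and -0.55. Sugt1 and Ahnak, also on the list, were nearer 0, at -0.093 and -0.19 in SCID cells and -0.13 and -0.0076 in WT cells. The Hsp90 co-chaperones Fkbp4, Fkbp5, Stip1 and Ppp5c, whose repeat domains bind S100 proteins, lay between -0.68 and -0.52 in SCID cells and between -0.71 and -0.47 in WT cells. Plat, the tissue plasminogen activator, was at 0.77 and 0.64, and Ctsb, a protease found with the S100a10 and annexin A2 complex, at 0.47 and 0.84. Nolc1, a nucleolar protein, was at -0.77 and -0.83. On the other side, Mdm2 was at 0.55 in SCID cells and 0.48 in WT cells, Mdm4 at 0.48 and 0.40, and Tpm1 at 0.42 and 0.37. The list medians, -0.093 in SCID minus line and -0.0076 in WT minus line, lay near 0. Of the 23 genes, 14 were below and 9 above 0 in SCID minus line, and 12 below and 11 above in WT minus line.

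Among receptors and extracellular partners 1 gene passed 2-fold in SCID minus line and 2 in WT minus line, all of them higher. Of 15 listed, 9 had values, and Ager, which encodes RAGE, was among those without. In SCID minus line 7 of 9 were above 0 with a median of 0.16, and in WT minus line all 9 with a median of 0.31. Alcam, a cell adhesion receptor related to RAGE, passed 2-fold at 1.58 in SCID cells and 1.36 in WT cells. Bsg (CD147) was at 0.86 and 0.71, and Tlr4 at 0.12 and 0.24. Cd14, a co-receptor of Tlr4 and also a monocyte marker, was at 0.41 in SCID cells and passed 2-fold in WT cells at 1.21. S100pbp, which encodes an S100-binding protein and not an S100 protein, was at 0.49 in SCID cells and 0.38 in WT cells. It was listed with the S100 genes S100b, S100g and S100z, none of which had a value.

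**Figure D4:**
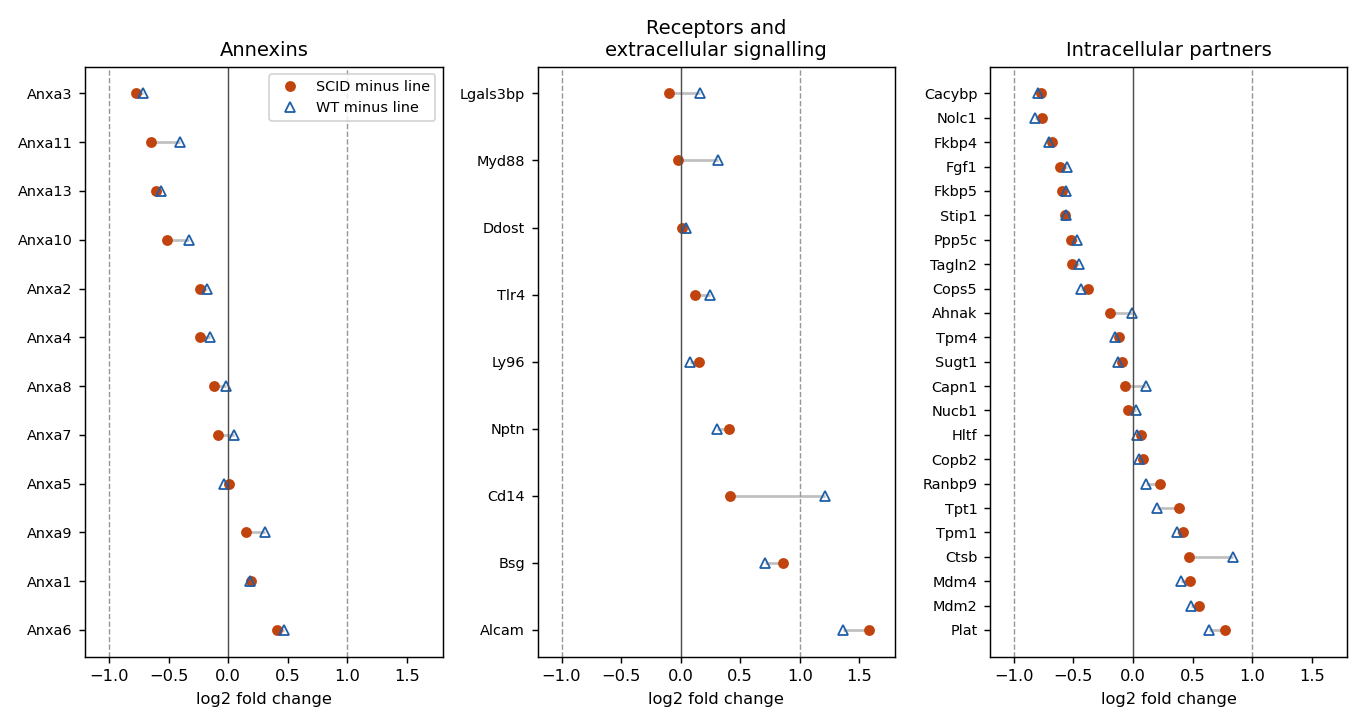
Log2 fold change (horizontal axis) of annexins, receptors and intracellular partners of S100 proteins (rows); filled circles are SCID minus line, open triangles WT minus line, a grey bar joins both values of a gene and dashed lines mark 2-fold. Alcam passes 2-fold higher in SCID and WT cells, Cd14 in WT cells, and no gene shown passes 2-fold lower.

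Other EF-hand calcium sensors lay on both sides of 0. Of 28 listed, 16 had values, 8 above and 8 below 0 in SCID minus line and again in WT minus line, and none passed 2-fold. Nucb2, a nucleobindin, was at 0.69 in SCID cells and 0.73 in WT cells.

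In bulk RNA, fewer cells of a type and less RNA per cell cannot be told apart, so values of cell type markers are given beside those of the S100A genes. Among tumour epithelial markers all 9 had values, with medians of -0.31 in SCID minus line and -0.19 in WT minus line, and 6 of 9 were below 0 in each. They differed in direction, as 3 passed 2-fold higher in each comparison and 2 passed 2-fold lower in SCID minus line and none in WT minus line. Lowest were the ductal keratins Krt7, at -1.18 in SCID cells and -0.99 in WT cells, and Krt19, at -1.01 and -0.95. Higher were the adhesion molecule Epcam at 1.25 in SCID cells and 1.59 in WT cells, Sox9 at 1.28 and 1.11, and Cldn4 at 1.01 and 1.26. Whether the labelled cell type was pure could not be read from fold changes. The macrophage list had 5 of 15 genes with values, with medians of 0.59 in SCID minus line and 2.06 in WT minus line, from -0.056 to 1.02 and from 0.77 to 2.77. Endothelial markers had 3 of 9, with medians of 1.12 and 1.09, and the fibroblast list had only Col1a1 of 12, at 2.61 and 1.90. The T and NK cell list had only Foxp3 of 10, at 0.098 and 0.086, and the neutrophil list had none of 13. In SCID minus WT the 5 macrophage genes with values had a median of -1.26 (-1.75 to -0.80), and the 9 S100A genes a median of -0.013. The part of host cells in the S100A values was not tested, nor was that of the sort, which the labels describe for tumour cells and not for the line.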

How the data were processed

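RNA was measured in 3 libraries, 1 per group; per the labels' protocols they were stranded poly(A) libraries read as pairs of 75 bases to a stated mean of 40 M reads. Library depths, and so the precision of a value, are unknown here. Log2 fold changes per RefSeq transcript were computed by the authors; the deposited header names no log base, and log2 was read from the listing of DESeq2 1.20.0 in the submitters' processing notes, which also list BWA, Partek, R 3.5.1 and mm9 with no role. Shrinkage, any row filter and use of strand are not given in these sources. The third column, whose name gives the SCID side only, equalled the first minus the second within 1e-12 and was read as SCID minus WT. All 12 member transcripts lay on the chromosome of RefSeq GRCm38.p6, and 8 of 9 gene ends were the same; ends printed are the stop minus 1.

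Transcripts were averaged per gene, and 2-fold was the threshold. The trend fit, tested on simulated data, used GENCODE M21 length and GC content, for 16697 transcripts by accession and otherwise from other transcripts of the gene (17725 in all). Calculations used Python 3.11.15, pandas 2.3.3 and numpy 2.4.6. Named were all members, and from each list the genes past 2-fold or the 2 farthest from 0, some of which are not reported here; partners of single members were named beside them after their values were seen. The members and lists were chosen with earlier results of these data known. Alternatives were other transcript summaries, centring, thresholds, members left out and the trend.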

Additional observations from a re-analysis of the deposited data

How the results depend on the processing

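All 9 S100A genes stayed below 0 against the line under every setting run. Their median ran from -0.83 to -0.43 in SCID minus line, from -0.72 to -0.41 in WT minus line and from -0.035 to -0.0081 in SCID minus WT. Of 3 genes called in SCID minus line, a 1.5-fold threshold gave 6 and a 4-fold threshold 1. The median transcript gave 2, without S100a16. Leaving out S100a7a, keeping genes with 1 transcript and removing the length and GC trend each gave 2 as well. Of 2 in WT minus line, the 1.5-fold threshold gave 6; the 4-fold threshold, leaving out S100a7a (also the member farthest from 0), keeping genes with 1 transcript and removing the length and GC trend each gave 1. In SCID minus WT, 0 were called under every setting. The share of all genes called with the trend removed was not computed. The setting with 1 transcript, the median transcript of S100a16 by itself and the trend, with lengths filled from other transcripts of a gene, were chosen after seeing the data. The trend by accession match alone was not run, since it covered 7 of 9 genes, and neither was leaving out S100a8 and S100a9, which had no value. No paired analysis was possible because each group was 1 library. Low values and counting error could not be assessed without counts.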

Other observations

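Among genes nearest to S100a1 by their values in SCID minus line and WT minus line stood Atrn (attractin) at -0.31 and -0.29, Ppig, a cyclophilin, at -0.30 and -0.29, and Abhd17c, a depalmitoylase, at -0.30 and -0.30, followed by Slc25a26 and Aimp1. Their distances from S100a1 were 0.0029 to 0.0040 on the log2 scale.

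In SCID minus WT, the 9 receptors and extracellular partners with values had a median of -0.033, with 4 above 0. The 23 intracellular partners with values had a median of 0.029, with 14 above 0. Farthest below 0 on these lists were Cd14 at -0.80, Ctsb at -0.37 and Myd88, the adaptor of Toll-like receptors, at -0.34. Farthest above 0 were Alcam at 0.22 and Tpt1 at 0.19. Of the S100A genes, 8 of the 9 lay between -0.053 and 0.038 and S100a14 at -0.31. None of these passed 2-fold.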
